A study of Arabidopsis thaliana with 30 samples.

Results

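The strigolactone pathway was followed in sorted root cells of Arabidopsis thaliana through 7 loci, 5 listed for synthesis and 2 for perception. They were taken by locus identifier, and they make up 7 of the 32833 genes in the count table. The synthesis loci were AT1G03055 (D27), AT2G44990 (MAX3, also CCD7), AT4G32810 (MAX4, also CCD8), AT2G26170 (MAX1, also CYP711A1) and AT3G21790. The perception loci were AT3G03990 (D14) and AT2G42620 (MAX2). AT3G21790 entered the list under the name LBO, but RefSeq describes its product as a UDP-glycosyltransferase superfamily protein and gives the name LBO1 to AT3G21420, a dioxygenase gene. AT3G21790 is therefore called by its locus, and LBO1 is described beside the 7 as an added gene.

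The 30 libraries came from 5 kinds of root cells, each sorted by flow cytometry from its own green fluorescent line. The epidermis was taken from WER::GFP roots and the stele from SHR::GFP roots, in which a promoter of these cells drives the fluorescent protein. The sort labelled cortex came from line J0571, that of the pericycle from J0661 and that of the lateral root cap from J3411. These J lines are enhancer traps, in which a GAL4 driver inserted in the genome turns on the reporter. All lines carried the wild type label, and all seedlings grew for 6 days at 22 °C in D-Root devices, which keep the root in the dark, on phosphate-sufficient medium (HPi) or on medium with little or no phosphate (LPi). For LPi the sample labels give a medium without phosphate, whereas the treatment protocol gives 5 µM. Each of the 10 groups held 3 libraries, and whether these were grown as separate cultures is not in the labels, so that p-values cover the spread between libraries only. Since each cell type came from 1 line, the cell type and the line cannot be told apart.

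Strigolactones are hormones made from carotenoids that restrain shoot branching, shape root systems and, when released into soil, stimulate mycorrhizal fungi and the seeds of parasitic weeds. In the plastid the isomerase D27 and the dioxygenases MAX3 and MAX4 turn beta-carotene into carlactone, which the cytochrome P450 MAX1 oxidises and LBO1 modifies further. The hormone is bound and hydrolysed by D14, which then joins the F-box protein MAX2 of a ubiquitin ligase, and the complex marks SMXL repressor proteins for breakdown. In many plant species a shortage of phosphate is known to raise strigolactone production in roots.

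RefSeq on the TAIR10.1 assembly placed all 7 loci and LBO1 as protein-coding genes. D27 lies on chromosome 1 from 710018 to 711857 on the minus strand, with 6 exons. MAX3 lies on chromosome 2 from 18558885 to 18561621 on the plus strand, with 7 exons. MAX4 lies on chromosome 4 from 15828228 to 15831492 on the plus strand, with 5 exons. MAX1 lies on chromosome 2 from 11140809 to 11143360 on the plus strand, with 5 exons. The genes without an intron, of 1 exon, are the glycosyltransferase AT3G21790 (chromosome 3, 7676818 to 7678542, minus strand), D14 (chromosome 3, 1033579 to 1035237, plus strand) and MAX2 (chromosome 2, 17756069 to 17758468, plus strand). LBO1 lies on chromosome 3 from 7541384 to 7543560 on the plus strand, with 4 exons. The authors' own build is not given in the sources used here, so these positions are those of RefSeq.

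The promoters shown are those of the synthesis gene with most reads in outer cells (MAX4), the synthesis gene and the receptor gene with most reads in inner cells (MAX1 and D14), and the gene of the first step (D27). Each is the 250 bases before the annotated start in the RefSeq genome TAIR10.1, printed along the strand of the gene. Capitals mark TATAAA, searched on the strand of the gene, or TGTCTC, the core letters of auxin response elements, searched on both strands. The regions are chr4:15827978-15828227 (plus strand) for MAX4, chr2:11140559-11140808 (plus strand) for MAX1, chr3:1033329-1033578 (plus strand) for D14 and chr1:711858-712107 (minus strand) for D27.
MAX4: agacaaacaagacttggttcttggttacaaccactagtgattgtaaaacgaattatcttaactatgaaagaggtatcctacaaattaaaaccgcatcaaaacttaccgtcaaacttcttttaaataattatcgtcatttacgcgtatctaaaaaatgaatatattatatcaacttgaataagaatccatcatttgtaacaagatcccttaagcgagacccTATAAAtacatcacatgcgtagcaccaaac
MAX1: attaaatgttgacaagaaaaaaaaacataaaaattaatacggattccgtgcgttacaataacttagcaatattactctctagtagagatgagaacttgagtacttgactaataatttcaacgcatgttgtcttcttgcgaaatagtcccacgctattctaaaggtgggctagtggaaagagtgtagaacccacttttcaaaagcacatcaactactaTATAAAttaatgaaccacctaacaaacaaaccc
D14: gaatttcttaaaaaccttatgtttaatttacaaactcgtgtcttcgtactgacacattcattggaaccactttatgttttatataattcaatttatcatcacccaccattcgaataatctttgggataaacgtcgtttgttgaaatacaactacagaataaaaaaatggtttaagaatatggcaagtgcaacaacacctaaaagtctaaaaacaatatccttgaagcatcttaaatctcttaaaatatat
D27: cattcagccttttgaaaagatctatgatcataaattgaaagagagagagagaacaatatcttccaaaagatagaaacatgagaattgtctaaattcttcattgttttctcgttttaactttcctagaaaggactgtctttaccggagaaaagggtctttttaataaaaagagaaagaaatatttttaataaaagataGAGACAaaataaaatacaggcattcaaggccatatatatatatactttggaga

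TATAAA begins 30 bases before the start in MAX4 and 33 bases before it in MAX1, and is in neither the D14 nor the D27 window. It is also in the windows of MAX3 (38 bases) and MAX2 (244 bases), against 32.9% of 27443 promoters of the same length. The D27 window holds the complement of TGTCTC 53 bases before the start, 1 of the 8 windows searched, against 10.9% of all promoters. GNATATNC, the letters bound by the phosphate starvation regulator PHR1, searched on both strands, was in 0 of the 8 windows and in 5.46% of all promoters. These are matches of letters and not sites of binding.

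Libraries held 427064 to 122076663 assigned reads (median 16836088.5), with 16455 to 29409 genes detected. A gene with 3 reads had 0.0256 to 4.98 CPM, the unit of counts scaled to library size, depending on the library. The shallowest libraries were stele LPi replicate 1 with 427064 reads, stele HPi replicate 1 with 1097568 and pericycle LPi replicate 3 with 1863306. Epidermis HPi replicate 3 and LPi replicate 3 were far more alike than any other pair from different samples (biological coefficient of variation 0.0528, next lowest 0.266), as were their D14 levels of 94.7 and 97.8 CPM. Calls in the epidermis against the mean of the other cell types are also given without both. The cell type labels were checked by marker genes. The sort labelled cortex held 4084 to 10178 CPM of the 7 endodermis markers at HPi and 3347 to 7439 CPM at LPi, all 7 with reads, while the other groups reached at most 1295 CPM and the 3 cortex markers summed to 28.7 to 43.8 CPM in it at HPi. Root cap markers were as high in the epidermis sort (970 to 1201 CPM over 5 markers at HPi, median 996) as in the lateral root cap sort (603 to 1780 CPM, median 723), with overlapping ranges. The 3 pericycle markers did not single out the pericycle sort (357 to 682 CPM at HPi), since they reached 1007 to 1642 CPM in the epidermis sort. The 4 phloem markers were highest in the pericycle sort at HPi (196 to 327 CPM), above the stele sort (108 to 139 CPM). Pericycle is used below as the label of that sort. In sorted bulk samples, fewer cells of a type and less RNA per cell cannot be told apart.

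The 7 loci fell into 2 patterns and a group of low level. MAX4 was high in the epidermis and the lateral root cap, and MAX1 and D14 were high in the cortex, pericycle and stele sorts. MAX2 was present everywhere and highest in the pericycle and stele. D27, MAX3 and AT3G21790 stayed below 4 CPM in every library. Levels between genes can be compared per kilobase of exon. On that scale, as means at HPi, D14 was highest in every cell type, from 38.0 CPM per kb in the lateral root cap to 324 in the cortex. MAX1 came next in the stele, at 34.0 CPM per kb, and MAX4 reached 5.11 CPM per kb in the epidermis. MAX3 and D27 stayed at or below 0.814 and 0.573 CPM per kb.

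**Figure D1:**
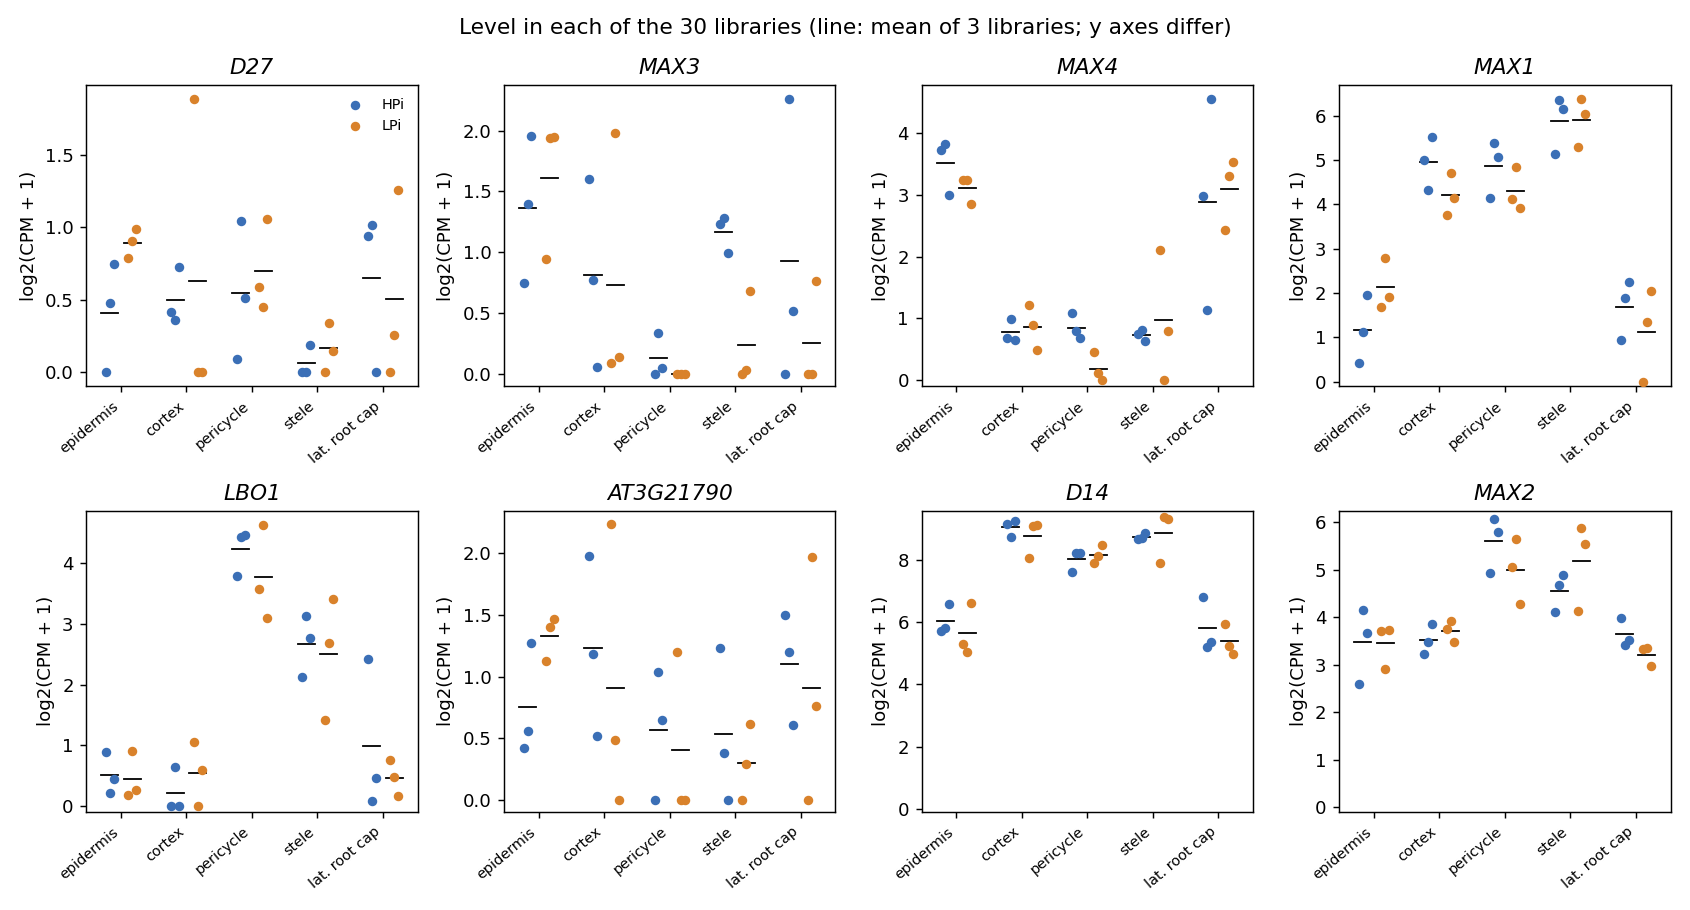
Level of each gene in each of the 30 libraries, as log2(CPM + 1) on the y axis against the 5 sorted cell types on the x axis, with HPi in blue, LPi in orange and a line at the mean of 3 libraries. MAX4 libraries of the epidermis sit at 6.18 to 13.1 CPM while those of the cortex sit at 0.404 to 1.32 CPM, and D14 libraries of the cortex sit at 265 to 610.5 CPM while those of the epidermis sit at 32.2 to 97.8 CPM.

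Each cell type was compared at HPi with the mean of the other 4 by edgeR's quasi-likelihood test on all 30 libraries, with Benjamini-Hochberg adjustment over 24866 genes and a call at an adjusted p under 0.05. These 5 comparisons share their libraries. Here and at LPi the mean of the other 4 was taken over log2 levels, so a fold against it is not a ratio of mean CPM. All 7 loci passed the filter on low counts. A test of any difference between the 5 cell types at HPi called 4 of the 7, MAX4, MAX1, D14 and MAX2, where 39.1% of all genes tested were called. In the epidermis 1 locus was higher (11.5% of all genes) and 2 were lower (6.23%). In the cortex 2 were higher (8.02%) and 0 lower (3.36%). In the pericycle 2 were higher (13.2%) and 0 lower (7.17%), and in the stele 2 were higher (12.1%) and 0 lower (5.68%). In the lateral root cap 1 was higher (12.4%) and 2 were lower (11.5%).

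D27, the isomerase of the first step, was low in all 5 cell types, from 0 reads in some libraries to 124 reads in pericycle HPi replicate 2. At HPi its level was 0, 0.391 and 0.678 CPM in the epidermis, 0.333, 0.284 and 0.649 CPM in the cortex, and 0.0656, 1.06 and 0.425 CPM in the pericycle. It was 0, 0 and 0.136 CPM in the stele, and 0.915, 1.02 and 0 CPM in the lateral root cap. The ranges of the cell types overlapped, and edgeR called no difference between them at this depth (any difference, adjusted p = 0.701). By limma voom the pericycle was called above the stele (2.54, adjusted p = 0.0416). D27 shares 24 exon bases with AT1G03050 on the opposite strand, and reads there cannot be told apart without strand information.

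MAX3, the dioxygenase that cleaves the isomerised carotenoid, was also low. In the epidermis it was at 0.677, 1.64 and 2.87 CPM at HPi and 0.92, 2.84 and 2.85 CPM at LPi. Pericycle libraries held 0, 0.264 and 0.0354 CPM at HPi and no read at LPi. Lateral root cap libraries scattered from 0 to 3.8 CPM. The stele was at 1.34 (2 reads), 1.43 and 0.997 CPM at HPi and 0, 0.0222 and 0.604 CPM at LPi. The cortex was at 2.03, 0.709 and 0.0433 CPM at HPi and 0.0629, 2.94 and 0.101 CPM at LPi. At HPi edgeR called no difference (any difference, adjusted p = 0.437). Other tools did, with any difference called by limma voom (adjusted p = 0.0211), and the pericycle called lower than the mean of the others by DESeq2 (-4.08, adjusted p = 0.0147) and limma voom (-2.99, adjusted p = 0.0144). Limma voom also called the HPi stele higher than the mean of the others (1.80, adjusted p = 0.0390). The LPi pericycle was called lower by DESeq2 (adjusted p = 0.0202) and not by edgeR (adjusted p = 0.0579). At LPi the epidermis was called higher than the mean of the others (adjusted p = 0.0248 by edgeR), but not once the nearly identical libraries were left out (adjusted p = 0.0794) or without epidermis LPi replicate 2 or 3 (up to 0.0695), and no fold is given since the pericycle group had no reads.

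MAX4, the dioxygenase that makes carlactone, was the outer-cell gene of the pathway. At HPi the epidermis libraries were at 12.2, 13.1 and 6.97 CPM and the lateral root cap libraries at 6.87, 1.19 and 22.5 CPM. The cortex was at 0.596, 0.993 and 0.563 CPM, the pericycle at 1.12, 0.733 and 0.602 CPM, and the stele at 0.672, 0.761 and 0.544 CPM. All libraries of both outer sorts were above all 9 libraries of the 3 inner sorts, although lateral root cap replicate 2, at 1.19 CPM, was close to the highest of these.

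The epidermis, with a mean of 10.8 ± 3.31 CPM (SD, n = 3), was 7.64-fold above the log2-scale mean of the other 4 cell types (log2 difference 2.93, SE 0.67, edgeR adjusted p = 0.00178). Without the nearly identical libraries the difference was 3.34 (adjusted p = 0.00337 by edgeR). The lateral root cap, at 10.2 ± 11 CPM, was 7.16-fold above the others (log2 difference 2.84, SE 0.67, adjusted p = 0.00253), but without its replicate 3 the difference was 1.51 with an adjusted p of 0.198. In pairs at HPi the epidermis exceeded the cortex (edgeR adjusted p = 0.0114, and 0.0162 without the nearly identical libraries), the pericycle (0.00995 and 0.0141) and the stele (0.0118 and 0.0182), and no difference from the lateral root cap was called (0.987). These pairs fell just short without replicate 3 of the cortex (0.0502), replicate 3 of the pericycle (0.0521) or replicate 2 or 3 of the stele (0.0556 and 0.066). The lateral root cap exceeded the cortex (0.0133), pericycle (0.0107) and stele (0.0097), and not without its replicate 3 (0.125, 0.117 and 0.0964). Its pair with the cortex was also lost by limma voom (0.0604) and by edgeR without cortex replicate 1 (0.0524) or 3 (0.0571). The pair with the pericycle was lost without pericycle replicate 3 (0.0535), and that with the stele without stele replicate 3 (0.0546). By mean the order was epidermis, lateral root cap, pericycle, cortex and stele, and no pair among the last 3 was called.

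The LPi libraries of the outer and inner sorts did not overlap either. The epidermis was at 8.42, 8.41 and 6.18 CPM and the lateral root cap at 4.4, 8.93 and 10.6 CPM. The cortex was at 1.32, 0.848 and 0.404 CPM and the pericycle at 0.366, 0.081 and 0 CPM. In the stele the 3.32 CPM of replicate 1 stood for 2 reads, and the others were at 0 and 0.728 CPM. Both outer sorts were called higher (log2 difference 2.96, SE 0.70, adjusted p = 0.00325 in the epidermis, 3.12, adjusted p = 0.0112 there without the nearly identical libraries, and 3.02, SE 0.71, adjusted p = 0.00271 in the lateral root cap, by edgeR). The pericycle was called lower (-3.47, SE 1.11, adjusted p = 0.0224), and not without the 3 shallowest libraries (-3.15, adjusted p = 0.0619) or without pericycle LPi replicate 2 or 3 (adjusted p of up to 0.151). Limma voom did not call it either (-3.07, adjusted p = 0.105). MAX4 shares 330 exon bases, 15.7% of its own, with AT4G32820 on the opposite strand. That neighbour had a median of 25.8 CPM in the pericycle, 21.5 CPM in the stele and 6.47 CPM in the cortex at HPi, against 10.6 CPM in the epidermis and 4.8 CPM in the lateral root cap. Epidermis and root cap markers ran with MAX4 (118 to 230 CPM over all 5 epidermis markers in the epidermis sort and 100 to 186 CPM in the lateral root cap sort at HPi, none at 0), and their part in the result was not tested.

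MAX1, the cytochrome P450 of the next step, had the opposite pattern. At HPi the stele libraries were at 34.3, 81.2 and 69.9 CPM, the cortex at 31.0, 18.9 and 44.8 CPM, and the pericycle at 16.6, 40.5 and 32.7 CPM. The epidermis was at 0.338, 1.17 and 2.91 CPM and the lateral root cap at 0.915, 2.72 and 3.73 CPM. Each of the 9 inner libraries was above each of the 6 outer ones, with no overlap.

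The stele, with a mean of 61.8 ± 24.5 CPM, was 7.87-fold above the log2-scale mean of the other 4 (log2 difference 2.98, SE 0.51, edgeR adjusted p = 1.28e-04). The epidermis, at 1.47 ± 1.31 CPM, was lower by 3.63 on the log2 scale (log2 difference -3.63, SE 0.76, edgeR adjusted p = 9.69e-04), and by 4.40 without the nearly identical libraries (-4.40, adjusted p = 0.00261). The lateral root cap, at 2.45 ± 1.42 CPM, was lower too (-2.76, SE 0.72, adjusted p = 0.00651). The cortex (31.6 ± 13 CPM, 1.76, SE 0.53, edgeR adjusted p = 0.0269) and the pericycle (29.9 ± 12.2 CPM, 1.66, SE 0.53, adjusted p = 0.0258) passed narrowly. The cortex call was lost when replicate 1 (adjusted p = 0.117) or replicate 3 (0.255) of the cortex or replicate 2 of the epidermis (0.0546) was left out, all at HPi, and the pericycle call without the 3 shallowest libraries (0.0572) or any 1 of 6 single libraries (up to 0.163). Pairs among the 3 inner sorts were not called (cortex against stele 0.445, pericycle against stele 0.574, cortex against pericycle 0.974, edgeR adjusted p), nor was the epidermis against the lateral root cap (0.758). Limma voom did call cortex against stele (-1.05, adjusted p = 0.0139) and pericycle against stele (-1.06, adjusted p = 7.19e-04).

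For MAX1 at LPi the stele was at 38.2, 81.9 and 64.7 CPM, the cortex at 12.6, 24.9 and 16.8 CPM, and the pericycle at 16.5, 27.6 and 14.1 CPM. The epidermis was at 2.24, 5.89 and 2.75 CPM and the lateral root cap at 0, 1.55 and 3.14 CPM. The inner and outer libraries again did not overlap. The stele was called higher (3.24, SE 0.51, edgeR adjusted p = 7.61e-05) and the lateral root cap lower (-3.51, SE 0.78, adjusted p = 0.00207). The epidermis was called lower (-1.90, SE 0.68, edgeR adjusted p = 0.0493), and not without the nearly identical libraries (-1.74, adjusted p = 0.137), a call that 17 of 38 alternative fits lost. The cortex (1.01, adjusted p = 0.285) and the pericycle (1.16, adjusted p = 0.141) were not called, although with the replicate number as a block the pericycle was (1.34, adjusted p = 0.0401 by edgeR). Xylem markers were far higher in the stele sort (2582 to 4504 CPM over all 6 markers at HPi, none at 0) than elsewhere at HPi (at most 90.8 CPM), and their part in the MAX1 level of the stele was not tested. An opposite-strand neighbour, AT2G26180, shares 71 exon bases with MAX1 and stayed at or below 2.72 CPM in every library.

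LBO1, a dioxygenase of a later step, was highest in the pericycle and stele sorts. In the pericycle it was at 12.8, 20.7 and 21.1 CPM at HPi and 10.9, 23.9 and 7.59 CPM at LPi. Stele libraries were at 3.36, 7.78 and 5.8 CPM at HPi and 1.66, 5.47 and 9.66 CPM at LPi. All libraries of the epidermis and the cortex were at or below 1.07 CPM, and those of the lateral root cap too but for 1, at 4.35 CPM.

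The pericycle level of LBO1 was 23.5-fold above the log2-scale mean of the other 4 at HPi (log2 difference 4.55, SE 0.82, edgeR adjusted p = 2.08e-04) and remained higher at LPi (4.07, SE 0.81, adjusted p = 3.23e-04). The stele was called higher at both levels of phosphate (2.49, SE 0.87, edgeR adjusted p = 0.0412 at HPi, and 2.53, SE 0.84, adjusted p = 0.0443 at LPi), calls that 17 and 23 of 38 alternative fits lost. Between the pericycle and the stele at HPi edgeR called no difference (1.65, adjusted p = 0.580), whereas limma voom did (1.71, adjusted p = 1.74e-04). At LPi the ranges of these 2 sorts overlapped. The cortex was called lower at HPi (-4.76, SE 1.46, adjusted p = 0.0267), and not without its replicate 1 (0.173) or 3 (0.176). Phloem markers followed the same order, with 196 to 327 CPM over all 4 markers in the pericycle sort and 108 to 139 CPM in the stele sort at HPi, none at 0, against at most 35.3 CPM elsewhere. Their part in the LBO1 result was not tested.

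AT3G21790, the glycosyltransferase locus, was low. Its HPi levels were 0.338, 0.469 and 1.42 CPM in the epidermis, 2.95, 1.28 and 0.433 CPM in the cortex, and 0, 1.06 and 0.567 CPM in the pericycle. It was at 1.34, 0.304 and 0 CPM in the stele and 1.83, 1.3 and 0.525 CPM in the lateral root cap. The ranges of the cell types overlapped, and edgeR called no difference at this depth (any difference, adjusted p = 0.853). By limma voom the stele was called lower than the mean of the others (-3.73, adjusted p = 0.00429). The gene belongs to a large family of like sequences, so its reads may be split with relatives.

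D14, the receptor, had the most reads of the 7. At HPi the cortex libraries were at 569.7, 429.8 and 610.5 CPM, the stele at 411, 418 and 465 CPM, and the pericycle at 193, 300.2 and 298 CPM. The epidermis was at 51.8, 55 and 94.7 CPM and the lateral root cap at 112, 36.2 and 40.6 CPM. No inner library was as low as any outer one.

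The cortex, with a mean of 537 ± 94.8 CPM, was 3.63-fold above the log2-scale mean of the other 4 (log2 difference 1.86, SE 0.31, edgeR adjusted p = 9.16e-05). The stele, with a mean of 431 ± 29.3 CPM, was called higher than its own other 4 as well (1.46, SE 0.32, adjusted p = 0.0015). The epidermis, at 67.2 ± 23.9 CPM, was lower (-1.89, SE 0.40, edgeR adjusted p = 9.62e-04, and -2.03, adjusted p = 0.00117, without the nearly identical libraries). The lateral root cap, at 63.0 ± 42.6 CPM, was also lower (-2.01, SE 0.41, adjusted p = 6.28e-04). The pericycle, at 264 ± 61.5 CPM, was not called by edgeR (0.58, adjusted p = 0.247), but was called higher by limma voom (0.70, adjusted p = 0.00399). By edgeR no pair in the order cortex, stele, pericycle was called (adjusted p of 0.718 for cortex against stele, 0.506 for pericycle against stele and 0.165 for cortex against pericycle), nor was the epidermis against the lateral root cap (0.953). Cortex against pericycle was called by DESeq2 (0.0387), by limma voom (0.00805) and with the filter of 5 CPM in 3 libraries (0.0463), and pericycle against stele by limma voom (0.0156). The cortex sort is the one that carried the endodermis markers, and their part in its D14 level was not tested.

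D14 at LPi was at 265, 539.6 and 560.4 CPM in the cortex, 239, 659 and 635 CPM in the stele, and 239.8, 276 and 355 CPM in the pericycle. It was at 38.6, 32.2 and 97.8 CPM in the epidermis and 60.8, 37.1 and 30.7 CPM in the lateral root cap. The separation of inner from outer libraries held here too. Calls followed for the stele (1.94, SE 0.31, edgeR adjusted p = 7.79e-05), the cortex (1.73, SE 0.32, adjusted p = 2.86e-04), the lateral root cap (-2.53, SE 0.42, adjusted p = 8.86e-05) and the epidermis (-2.05, SE 0.41, adjusted p = 6.07e-04, and -2.65, adjusted p = 1.93e-04, without the nearly identical libraries). The pericycle was just past the threshold (0.91, SE 0.33, adjusted p = 0.0470), a call that 25 of 38 alternative fits lost.

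MAX2, the F-box protein that D14 joins, was read in every library. Pericycle libraries were at 29.6, 66.0 and 54.5 CPM at HPi, stele libraries at 16.1, 24.7 and 28.8 CPM, and cortex libraries at 8.3, 10.2 and 13.4 CPM. The epidermis was at 5.07, 16.7 and 11.8 CPM and the lateral root cap at 14.9, 9.69 and 10.5 CPM. The pericycle libraries were above all others at HPi, and the stele range overlapped that of the epidermis.

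For MAX2 the pericycle, with a mean of 50.04 ± 18.6 CPM, was 3.72-fold above the log2-scale mean of the other 4 (log2 difference 1.90, SE 0.32, edgeR adjusted p = 9.86e-05). By edgeR the stele, at 23.2 ± 6.45 CPM, was not called (0.53, adjusted p = 0.331), nor was its difference from the pericycle (0.219), the epidermis (0.111), the cortex (0.104) or the lateral root cap (0.104). Limma voom did call the stele higher (0.74, adjusted p = 0.00517), and each of these pairs (1.21e-04, 0.00166, 0.00297 and 0.0249 in the same order). The pair with the cortex was also called by DESeq2 (0.0132), and by edgeR with RLE size factors (0.0469) or without the 3 shallowest libraries (0.0297). Against the mean of the others at HPi, edgeR did not call the cortex (-0.90, adjusted p = 0.138) or the epidermis (-0.79, adjusted p = 0.160). The cortex was called lower by DESeq2 (0.00474), and by edgeR with RLE size factors (0.0378) or without the 3 shallowest libraries (0.0330). Limma voom called the epidermis lower (-1.09, adjusted p = 0.0233). At LPi the pericycle was at 32.2, 49.1 and 18.4 CPM and the stele at 16.6, 57.6 and 45.3 CPM, so that the ranges overlapped. Both were called higher (1.23, SE 0.33, edgeR adjusted p = 0.00707 in the pericycle, and 1.58, SE 0.33, adjusted p = 0.0014 in the stele), and each call rested on replicate 2, without which the adjusted p was 0.182 and 0.0647. The lateral root cap, at 9.0, 9.13 and 6.86 CPM, was called lower at LPi (-1.29, SE 0.40, edgeR adjusted p = 0.0194), and not without any 1 of its own LPi libraries (adjusted p of up to 0.105).

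**Figure D2:**
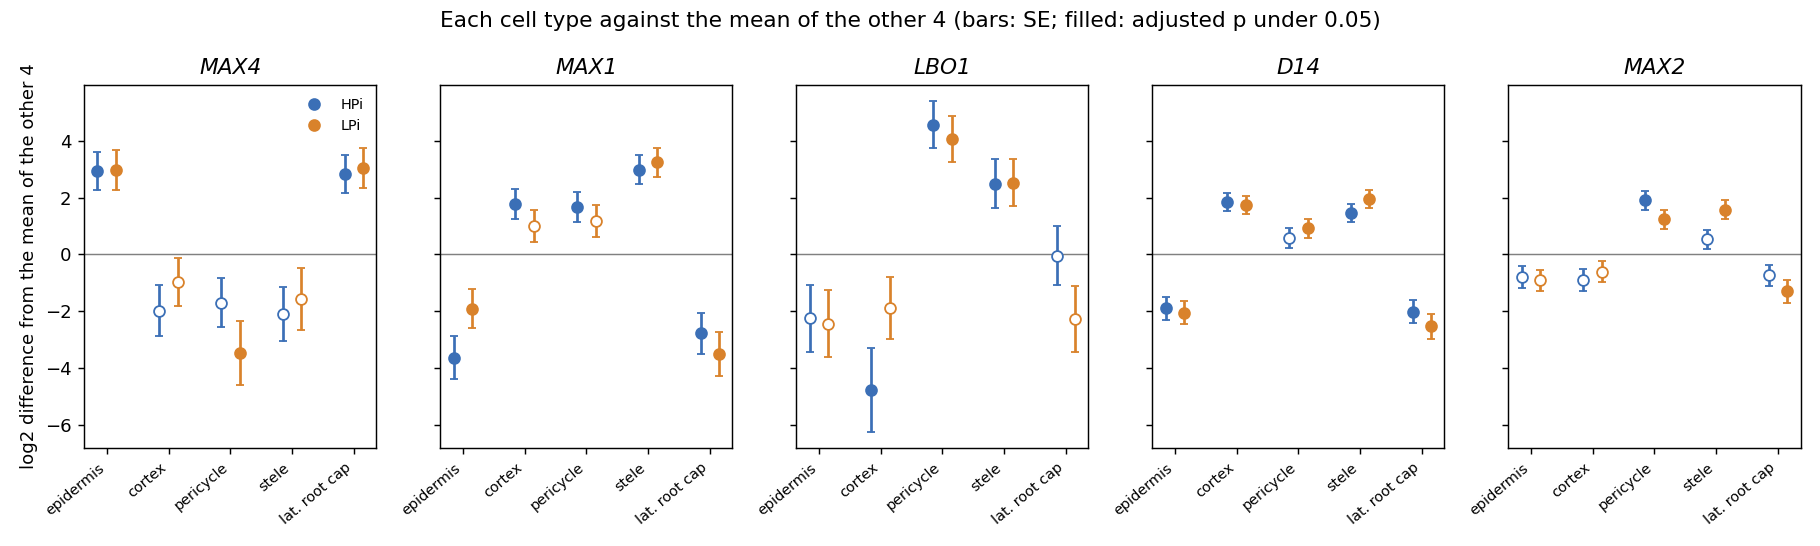
Log2 difference (y axis) of each cell type (x axis) from the mean of the other 4, for the 5 genes called in any of these tests at HPi, with bars for the standard error, filled points for an adjusted p under 0.05, HPi in blue and LPi in orange. D14 is at -1.89 in the epidermis and 1.86 in the cortex at HPi, MAX1 at -3.63 and 1.76, and MAX4 at 2.93 and -1.98, the last of these not called.

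At LPi 2 of the 7 loci were higher in the epidermis (13.5% of all genes) and 2 lower (6.04%). In the cortex 1 was higher (7.09%) and 0 lower (3.25%), in the pericycle 2 were higher (13.9%) and 1 lower (7.91%), and in the stele 3 were higher (8.37%) and 0 lower (3.98%). In the lateral root cap 1 was higher (12.2%) and 3 were lower (9.13%). The third gene lower in the lateral root cap, and the third higher in the stele, was MAX2 in both.

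Pairs of cell types at HPi placed the 7 loci in the same way. Of the 7, 3 differed between the epidermis and the cortex (16.1% of all genes), 4 between the epidermis and the pericycle (24.2%) and 3 between the epidermis and the stele (18.8%). For the lateral root cap, 3 differed from the cortex (16.2%), 4 from the pericycle (26.2%) and 3 from the stele (26.3%). Among the inner sorts 1, MAX2, differed between cortex and pericycle (9.27%). By edgeR 0 differed between cortex and stele (12.8%), with 1 at an unadjusted p under 0.05, 1 by DESeq2 and 3 by limma voom. Over all genes edgeR called 3186 there, DESeq2 4792 and limma voom 8872. Between pericycle and stele 0 differed by edgeR (4.40%), with 1 unadjusted, 0 by DESeq2 and 6 by limma voom. The calls over all genes were 1094 by edgeR, 2162 by DESeq2 and 8023 by limma voom for this pair. The epidermis and the lateral root cap differed in 0 of the 7 (1.92%; 0 unadjusted, 0 by DESeq2, 0 by limma voom).

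The response to low phosphate was then compared, LPi against HPi, within each cell type, as the mean of the 5 responses and as a joint test of whether the responses differ. In edgeR 0 of the 7 loci were called in any of these, and LBO1 was not called either. Over all genes 0% were called in the epidermis, cortex and stele and in the joint test, 0.00402% in the pericycle, 0.0241% in the lateral root cap and 0.00402% for the mean. At an unadjusted p under 0.05 the count was 0 of the 7 in each cell type and 1 for the mean. This was MAX3, with an edgeR adjusted p of 0.723. Over all 24866 genes the unadjusted count was 243 in the epidermis, 1221 in the cortex, 3063 in the pericycle and 758 in the stele. It was 1679 in the lateral root cap and 1711 for the mean. DESeq2 and limma voom also called 0 of the 7 in each of them. Over all genes these tools differed widely from edgeR, with 1498 genes called by DESeq2 and 1 by limma voom in the pericycle, 158 and 0 in the lateral root cap, 30 and 77 in the stele, 22 and 2 in the cortex, 2 and 0 in the epidermis, 38 and 2 for the mean and 42 and 56 in the joint test.

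The sizes of response that the libraries still allow differed between genes. For D14 the mean response was -0.13 on the log2 scale (95% interval -0.54 to 0.27), and the widest bounds in a single cell type were -1.46 in the lateral root cap and 1.16 in the stele. MAX2 had a mean response of -0.03 (-0.45 to 0.38), with the largest value in the stele (0.81, interval -0.13 to 1.74). MAX1 gave -0.20 (-0.90 to 0.49) and MAX4 -0.51 (-1.48 to 0.46), with a MAX4 value of -1.92 in the pericycle that ranged from -4.26 to 0.42. For D27 the mean response was 0.72 with an interval from -0.99 to 2.44, and for LBO1 it was 0.04 (-1.17 to 1.26).

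D27 had the widest intervals with MAX3 and AT3G21790, for example -2.46 to 4.82 in the epidermis. There its level was 0, 0.391 and 0.678 CPM at HPi and 0.723, 0.873 and 0.981 CPM at LPi, and the difference was not called. These levels stood for 0, 5 and 21 reads at HPi and 11, 8 and 10 reads at LPi. The last library of each is 1 of the nearly identical pair. In the cortex 2 of 3 LPi libraries were at 0 and the other at 2.7 CPM, and in the remaining cell types HPi and LPi overlapped. As a check of the treatment, AT4, a phosphate starvation transcript, rose in the pericycle (log2 difference 2.12, edgeR adjusted p = 0.0324) and as a mean of the 5 cell types (0.98, adjusted p = 0.00977). It was the only 1 of 6 phosphate response genes listed that edgeR called in either, although all 6 had a value above 0 in the pericycle and for the mean (in the pericycle IPS1 at 2.70, adjusted p = 0.217, and SPX1 at 2.59, adjusted p = 0.111).

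**Figure D3:**
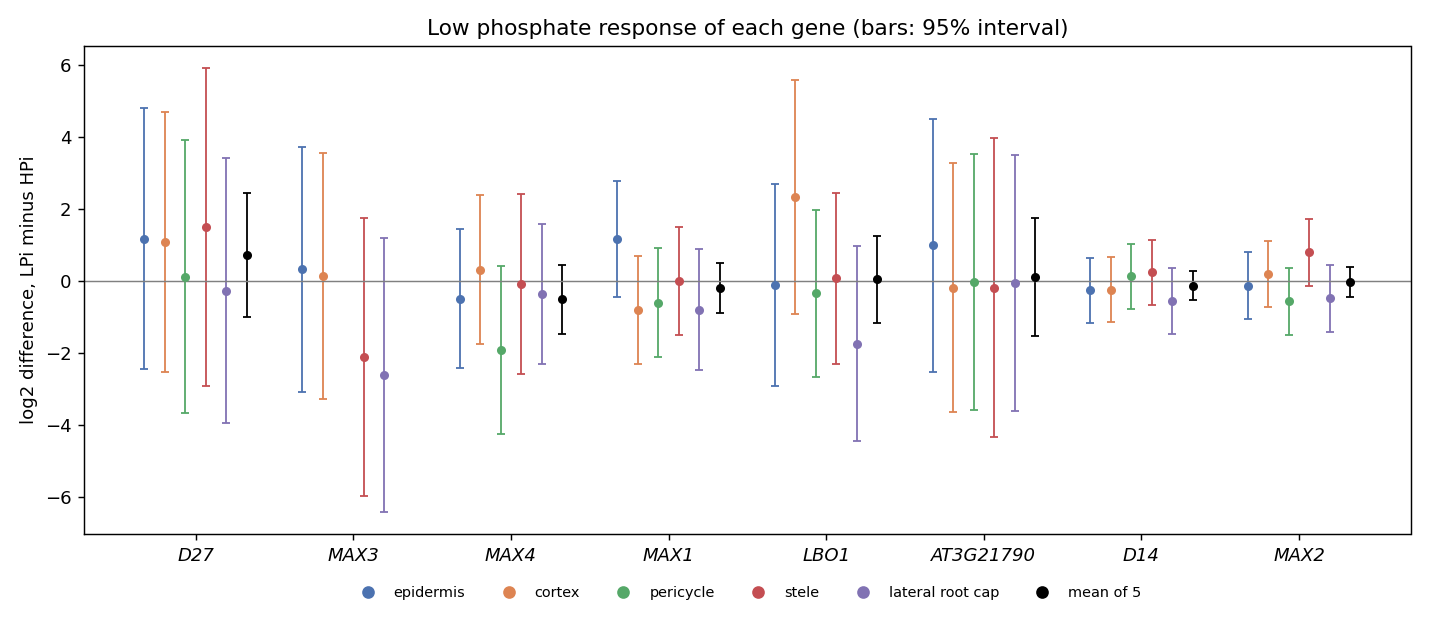
Log2 difference of LPi minus HPi (y axis) for each gene (x axis) in each of the 5 cell types and as their mean in black, with bars for the 95% interval; values with a group that had no reads are left out. The D14 mean is -0.13 with a bar from -0.54 to 0.27, and the D27 mean is 0.72 with a bar from -0.99 to 2.44.

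The carotenoid genes that feed the pathway were described next, in lists chosen by role. All 6 differed between cell types at HPi in edgeR's test of any difference, which called 39.1% of all genes. PSY, phytoene synthase, the entry step of the carotenoid route, was at 27.3 ± 11.3 CPM in the pericycle and 27.8 ± 5.04 CPM in the stele and at 3.39 ± 0.657 and 2.74 ± 2.14 CPM in the epidermis and lateral root cap (SD, n = 3 each). It was called higher in the 2 inner sorts (log2 difference 2.10 and 2.13) and lower in the 2 outer ones (-1.68 and -2.07). PDS3, phytoene desaturase, was highest in the cortex at 95.1 ± 34.9 CPM (3.08, SE 0.29, edgeR adjusted p = 1.65e-08) and lower in the epidermis (-2.30) and the lateral root cap (-1.28). ZDS and LYC, a second desaturase and a cyclase, were called higher in the pericycle (0.91 and 1.2) and lower in the lateral root cap (-1.45 and -1.43), and LYC was also called higher in the cortex (1.08). The isomerase gene Z-ISO was called higher in the pericycle (0.97) and lower in the epidermis (-1.45). CRTISO, the other isomerase gene, passed the test of any difference (adjusted p = 0.0274 by edgeR) but no comparison of a cell type with the others. When each library was left out in turn, the calls of PSY in the pericycle and stele, of PDS3 in the cortex and epidermis, of Z-ISO in the epidermis and of ZDS in the lateral root cap held, and each other call in this list was lost without at least 1 library (adjusted p of up to 0.456, for LYC in the cortex). Without the nearly identical libraries the epidermis values were -1.36 for PSY (adjusted p = 0.23, not called), -2.05 for PDS3 (0.00395) and -1.54 for Z-ISO (0.00381).

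Of the 8 SMXL genes, whose products are the repressors of strigolactone and karrikin responses, 7 were tested and 5 differed between cell types, against 39.1% of all genes. SMXL6 and SMXL7 encode repressors removed through D14 and MAX2. SMXL6 was at 106 ± 35.4 CPM in the pericycle and 17.1 ± 8.23 CPM in the epidermis, and was called higher in the pericycle (1.65, SE 0.35, edgeR adjusted p = 0.00103) and lower in the epidermis (-1.63) and the lateral root cap (-1.23). SMXL7, at 42.7 ± 5.38 CPM in the cortex, was called higher in the cortex (1.19) and pericycle (1.02) and lower in the epidermis (-1.45). SMXL2, a repressor of karrikin response, reached 301 ± 46.1 CPM in the cortex (2.35, SE 0.29, adjusted p = 1.28e-06 by edgeR) and was lower in the epidermis (-2.22) and the lateral root cap (-1.42). SMXL3 and SMXL5, regulators of phloem formation, were called higher in the pericycle (4.25 and 3.97), with means of 3.39 and 6.00 CPM there. With each library left out in turn the calls of SMXL6 and SMXL3 in the pericycle and of SMXL2 in the cortex and epidermis held. The remaining SMXL calls were each lost without at least 1 library, at an adjusted p of up to 0.102 for SMXL6 in the epidermis, 0.197 for SMXL6 in the lateral root cap, 0.0804 for SMXL7 in the pericycle and 0.0687 for SMXL5 in the pericycle. In the epidermis without the nearly identical libraries SMXL6 was at -1.24 (adjusted p = 0.113, not called), SMXL7 at -1.70 (0.00282) and SMXL2 at -2.26 (7.36e-04).

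**Figure D4:**
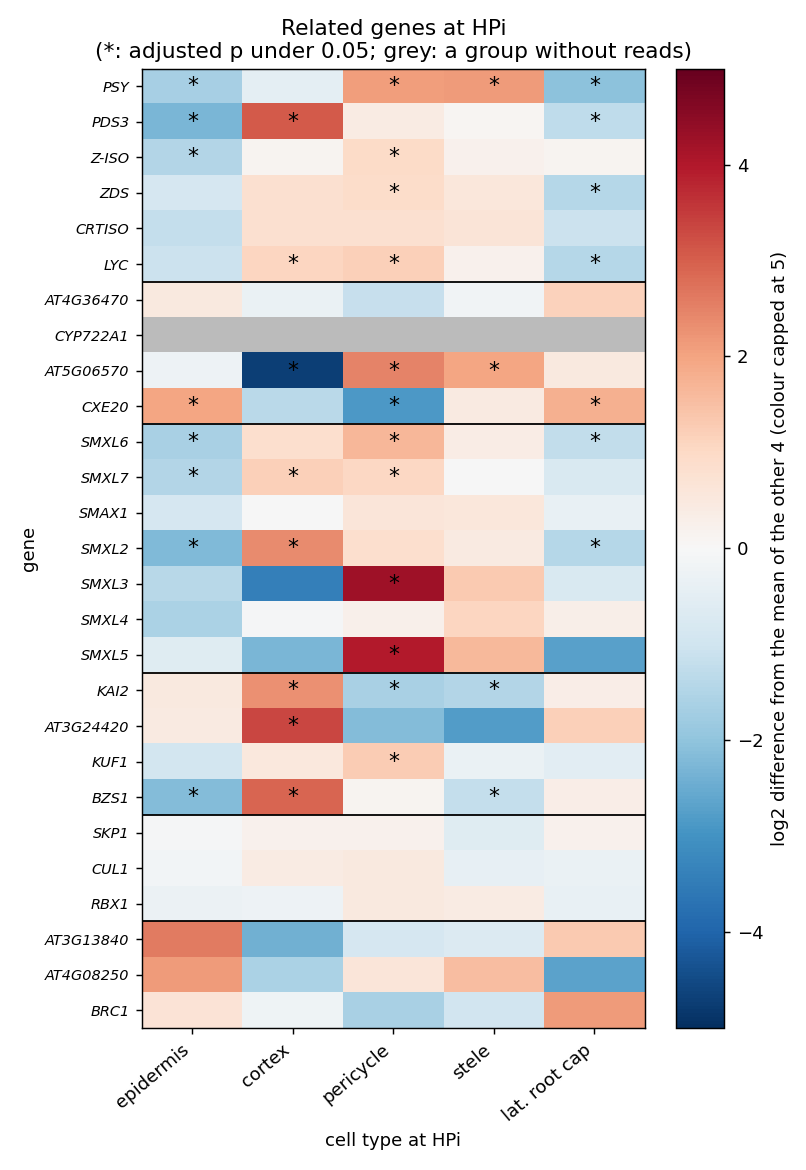
Log2 difference at HPi of each related gene (rows, with lines between the lists) in each cell type (columns) from the mean of the other 4, red for higher and blue for lower, with a star for an adjusted p under 0.05 and grey where a group had no reads. SMXL6 is at 1.65 in the pericycle and -1.63 in the epidermis, and PDS3 is at 3.08 in the cortex.

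The partners of MAX2 in the ubiquitin ligase, SKP1, CUL1 and RBX1, were not called in edgeR's test of any difference at HPi (adjusted p of 0.196, 0.195 and 0.211), with SKP1 at means of 319 to 509.6 CPM. D14 has close relatives, of which KAI2, the karrikin receptor, was highest in the cortex at 48.2 ± 3.33 CPM (log2 difference 2.29, SE 0.34, edgeR adjusted p = 1.32e-05). KAI2 was called lower in the pericycle (-1.64) and the stele (-1.46), where D14 was not lower. AT3G24420, an alpha/beta-hydrolase gene of the same family, was also highest in the cortex (119 ± 64.2 CPM, 3.33, SE 0.68, adjusted p = 0.0013 by edgeR). BZS1, a B-box zinc finger gene, was called higher in the cortex (2.90) and lower in the epidermis (-2.16) and stele (-1.21), and the F-box gene KUF1 was called higher in the pericycle (1.28). Leaving out single libraries ended the calls of KAI2 in the stele (adjusted p of up to 0.242), BZS1 in the stele (0.290) and KUF1 in the pericycle (0.0605), and not the others. BZS1 in the epidermis was at -1.98 without the nearly identical libraries (adjusted p = 0.0206 by edgeR).

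Genes listed for later steps and breakdown were split between sorts. CXE20, a carboxylesterase gene, was at 49.0 ± 11 CPM in the epidermis and 44.0 ± 21.4 CPM in the lateral root cap (1.98 and 1.79, edgeR adjusted p = 2.72e-04 and 9.87e-04). It was lower in the pericycle, at 3.36 ± 0.21 CPM (-2.85, SE 0.51, adjusted p = 2.19e-04). AT5G06570, another alpha/beta-hydrolase gene, was instead higher in the pericycle (37.6 ± 9.12 CPM, 2.48) and stele (28.2 ± 5.36 CPM, 1.96) and lower in the cortex (0.691 ± 0.248 CPM, -4.70, SE 0.59, edgeR adjusted p = 1.28e-06). The methyltransferase gene AT4G36470 and the cytochrome P450 gene CYP722A1 were not called, with means of at most 1.56 CPM at HPi. Of the 2 relatives of D27, AT4G01995 was not called (mean of at most 3.03 CPM), and AT1G64680 was called only in the lateral root cap (edgeR adjusted p = 0.0481), at a mean of 0.742 CPM with no reads in the epidermis and stele, a call lost in 19 alternative fits. The calls of CXE20 and AT5G06570 held when each library was left out in turn, and CXE20 in the epidermis was at 1.96 without the nearly identical libraries (adjusted p = 0.00218 by edgeR).

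The listed regulator genes, the GRAS genes AT3G13840 and AT4G08250 and the branching regulator BRC1, were not called by edgeR at HPi (adjusted p for any difference of 0.530, 0.0642 and 0.531). AT4G08250 was at 2.24 ± 0.356 CPM in the epidermis. In the response to low phosphate edgeR called 0 of the 36 tested genes of these lists, other carotenoid dioxygenases included, in any cell type or for the mean. At an unadjusted p under 0.05 there were 0 in the epidermis, 2 in the cortex, 4 in the pericycle and 1 in the stele. There were 5 in the lateral root cap and 5 for the mean. Over all 24866 genes the same counts were 243, 1221, 3063, 758, 1679 and 1711 in this order. DESeq2 called 2 of the 36 in the pericycle (1498 of all genes) and 1 for the mean (38 of all genes), and limma voom 0.

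Which genes shared a pattern was measured by the Pearson correlation of the 10 group means of log2 CPM, given as a description since the groups share libraries' depth and scaling. The closest genes to MAX4 were scpl3 (r = 0.980) and GB1 (0.975), and those to MAX1 were TRP1 (0.978) and AT3G06450 (0.972). D14 was closest to cICDH (0.988) and MTHFR2 (0.987), MAX2 to BOR1 (0.974) and AT3G51270 (0.974), and LBO1 to TTN1 (0.984) and SUC2 (0.983), a sucrose transporter gene of the phloem. For the 3 low loci the closest genes were SUO (0.895) for D27, PUB4 (0.921) for MAX3 and AT1G13570 (0.953) for AT3G21790. Among the pathway genes themselves, over the same 10 groups, MAX1 and D14 ran together (r = 0.940), as did MAX2 and LBO1 (0.933), while MAX4 ran against MAX1 (-0.854) and D14 (-0.872).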

How the data were processed

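The authors deposited a table of read counts per gene, whole numbers without normalization, for 30 libraries of sorted root cells. Per the labels, RNA was amplified with an ultra low input kit, which does not mark strand. The submitters' processing notes name CASAVA 1.4, FastQC 0.11.9, MultiQC 1.7, STAR 2.5.3a, HTSeq 1.99.2 and DESeq2; their roles, the genome build, the annotation and whether counting used strand were not given in the sources used here. The lines of unassigned reads (4.99% to 12.5% of a library) were left out. Groups came from the labels. Depths and the CPM of a floor of 3 reads stand with the results; floors cover counting error only.

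In R 4.3.3, edgeR 4.0.16 (filterByExpr, TMM, robust quasi-likelihood F test, 2-sided) was fitted with 1 mean per group (20 residual degrees of freedom), with Benjamini-Hochberg adjustment over 24866 genes and a threshold of 0.05. The standard error is the size of the unshrunk log2 difference divided by the square root of F. The log2 differences printed are edgeR's shrunken values, and the intervals are centred on these. CPM are scaled by TMM. The workflow was tested on simulated data. Genes similar in pattern were sought among those with a mean log2 CPM of at least 2. From the related lists, genes were named if called in a comparison reported, or among the 2 with the smallest p in the test of any difference. The members and lists were chosen with earlier results of these data known.

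Whether equal replicate numbers pair HPi and LPi libraries was checked from the correlation of their deviations from the group means. It was 0.123 to 0.238 in the epidermis and 0.111 to 0.212 in the stele, over 0.1 for each of the 3 pairs, and not in the cortex, pericycle or lateral root cap. The pairing comes from the data alone. Alternatives were RLE size factors, 2 other filters, DESeq2 1.42.0, limma voom (limma 3.58.1), a replicate block, separate fits of each cell type, and fits without single libraries, without the 3 shallowest libraries or without the 2 nearly identical epidermis libraries. RefSeq (TAIR10.1) gave names, positions and sequences; 285 identifiers were not matched.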

Additional observations from a re-analysis of the deposited data

How the results depend on the processing

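Of 63 called results for the 7 loci and LBO1, 41 kept their call under every alternative run and 0 reversed; of 161 not called, 126 stayed so. Counts of the 7 loci called moved with the setting, and not every smaller move is listed. Smaller moves by limma voom were to 4 in the HPi epidermis (3 in the main test), 5 in the LPi epidermis (4), 4 in the LPi stele (3) and 5 for any difference (4). By DESeq2 they were to 3 in the HPi pericycle (2), 3 in the HPi stele (2), 5 in the LPi epidermis (4) and 4 in the LPi pericycle (3). Larger moves were as follows. At HPi the cortex count was 4 by DESeq2 (2 in the main test), the pericycle count was 1 with RLE size factors, 1 without the 3 shallowest libraries and 5 by limma voom (2), and the stele count was 6 by limma voom (2). At LPi the epidermis count was 2 without the nearly identical libraries (4) and the pericycle count 1 without the 3 shallowest libraries (3). Over the 10 pairs limma voom made 34 calls (21). In each pair it also called more of all genes than edgeR, for example 8023 against 1094 between pericycle and stele. Over all genes limma voom called 12044 in the HPi pericycle and 11575 in the HPi stele, and DESeq2 4225 in the HPi cortex. The edgeR calls there were 3278 higher and 1783 lower, 2998 and 1413, and 1995 and 836. Leaving out 1 library at a time gave 0 to 0 for each response, 3 to 3, 1 to 2, 1 to 2, 2 to 2 and 2 to 3 at HPi in the order epidermis, cortex, pericycle, stele and lateral root cap, 2 to 4, 1 to 1, 0 to 4, 2 to 3 and 3 to 4 at LPi, 4 to 4 for any difference and 18 to 22 over the pairs. With the replicate block the LPi pericycle count was 4 (3), the response counts stayed at 0, and the calls that changed were MAX1 in the LPi pericycle (1.34, adjusted p = 0.0401) and LBO1 between epidermis and stele at HPi (adjusted p = 0.0546). RLE size factors moved the median of all genes, by 0.32 in the lateral root cap against the rest, -0.25 in the pericycle against the rest and 0.28 in the pericycle response. In each of these the cause was not tested. Of 83 called results for related genes, 52 were unchanged by any alternative and 0 reversed. D27, MAX3 and AT3G21790 were each below 4 CPM in every library, and they scattered between deep libraries too. MAX3 had 116 reads in cortex HPi replicate 1 and 1 read in cortex HPi replicate 3, a library of 27901181 reads. The part of depth in their wide intervals was not tested.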

Other observations

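The other carotenoid cleavage dioxygenases, relatives of MAX3 and MAX4 of which most make precursors of abscisic acid, were measured in the same libraries. Of the 7 listed, 6 were tested and 3 differed between cell types at HPi by edgeR, against 39.1% of all genes. NCED3, a rate-limiting enzyme of abscisic acid synthesis, was at 895 ± 497 CPM in the cortex sort and at 106 to 171 CPM as means of the other sorts (SD, n = 3; log2 difference 2.80, SE 0.32, edgeR adjusted p = 3.63e-07). NCED9 was called higher in the epidermis, at 7.17 ± 5.24 CPM (2.88, SE 0.82, edgeR adjusted p = 0.0119), and not without epidermis HPi replicate 3 (adjusted p = 0.138) or without both nearly identical libraries (2.29, adjusted p = 0.166). CCD1, which cleaves many carotenoids, passed the test of any difference (adjusted p = 0.0472 by edgeR), with means from 6.36 CPM in the lateral root cap to 41.5 CPM in the pericycle, a call that 29 of 38 alternative fits lost. NCED2 was called lower in the cortex (adjusted p = 0.0396 by edgeR), at 0.0473 CPM there, a call lost in 9 alternative fits. The NCED3 call held in each of the 38 alternatives.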
